A study of Mus musculus with 11 samples.

Results

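The DEAD and DEAH box helicases are enzymes that use ATP to open or remodel RNA duplexes and RNA-protein complexes, and they are named for a short run of amino acids in the ATP-binding core. All expression-array probe sets with 1 gene symbol of the form Ddx or Dhx and a number were taken, apart from symbols that the rule leaves out, and each gene was represented by its probe set with the highest mean over the arrays. This gave 39 genes (28 Ddx and 11 Dhx) of 12393 genes on the array, read by 80 of its 22626 probe sets. Of the 39 genes, 37 passed the filter on dim probe sets and were tested, and Ddx4 and Ddx60 were not. The samples were B cell lymphomas of mice that carry the E-mu-BRD2 transgene on the FVB background, in which the enhancer of the immunoglobulin heavy chain locus drives the chromatin reader BRD2 in B lineage cells. The labels place 6 lymphomas in a marginal and 5 in a transitional severity class, with 1 array each and with oligoclonal immunoglobulin throughout, so no group lacks the transgene. All transitional animals and marginal animals 2 and 3 were noted for failure to nest, while marginal 1, 4 and 5 had a tumour of the neck, leg or haunch and marginal 6 had paralysis. Spleen enlargement was recorded in 5 grades. Marginal 1 had the grade marginal, marginal 2, 3 and 4 and transitional 3 the grade mild, marginal 5 and 6 moderate, transitional 4 and 5 moderately severe, and transitional 1 and 2 severe. These grades describe the spleen of the animal and sort the arrays below, whatever organ the RNA came from. The sources used here do not give that organ, the age of the animals, or whether each array is a separate animal, so p-values measure the spread between these arrays.

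DEAD box members open short duplexes locally, whereas many DEAH box members move along a strand and pull it free of its partners. In dividing lymphoid cells they serve at each stage of RNA life, from transcription and splicing through nuclear export and translation to ribosome assembly and decay. A smaller branch recognises viral RNA in the cytoplasm, and some members are largely confined to germ cells.

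Promoter sequences of RefSeq (build GRCm38.p6) were matched by symbol for 35 of the 39 genes, and the 250 bases before the annotated start were read; Ddx6, Ddx39a, Dhx38 and Dhx58 had no entry. 4 sequences are shown as examples, chosen with the values below known. Dhx57, Ddx54 and Ddx1 passed the test between moderately severe and mild spleens. Ddx60 had one of the widest ranges of signal but was too dim for the main test. Ddx25, Ddx19b and Dhx30 also passed and have entries, but are not shown. Capitals mark matches, on either strand, to the interferon element (GAAA, any 2 bases, GAAA), the ETS motif CCGGAAG, the GC box GGGCGG or the CCAAT box.
Ddx60: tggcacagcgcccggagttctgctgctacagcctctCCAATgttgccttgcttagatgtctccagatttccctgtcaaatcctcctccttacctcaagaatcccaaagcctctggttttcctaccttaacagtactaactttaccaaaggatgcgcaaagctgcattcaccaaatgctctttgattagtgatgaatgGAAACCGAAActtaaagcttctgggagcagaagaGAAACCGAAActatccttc
Ddx54: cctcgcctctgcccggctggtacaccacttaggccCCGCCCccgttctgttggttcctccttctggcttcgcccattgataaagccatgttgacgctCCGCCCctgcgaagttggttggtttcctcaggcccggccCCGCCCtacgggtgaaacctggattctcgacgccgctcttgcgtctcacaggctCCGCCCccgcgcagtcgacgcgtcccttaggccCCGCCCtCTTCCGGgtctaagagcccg
Ddx1: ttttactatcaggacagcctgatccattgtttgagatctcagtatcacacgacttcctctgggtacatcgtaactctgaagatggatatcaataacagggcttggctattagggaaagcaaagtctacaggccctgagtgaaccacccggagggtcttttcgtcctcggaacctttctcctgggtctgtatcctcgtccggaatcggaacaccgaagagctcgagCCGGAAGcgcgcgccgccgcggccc
Dhx57: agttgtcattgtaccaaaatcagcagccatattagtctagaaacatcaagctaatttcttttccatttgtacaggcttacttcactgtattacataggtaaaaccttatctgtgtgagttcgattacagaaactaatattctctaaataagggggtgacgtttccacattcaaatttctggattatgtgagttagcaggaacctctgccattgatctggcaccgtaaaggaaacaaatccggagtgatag
The Ddx60 window (chr8:61927837-61928086, plus strand) held 2 copies of the interferon element, at 53 and 19 bases before the start, and a CCAAT box at 214 bases. The Ddx54 window (chr5:120612880-120613129, plus strand) held 5 GC boxes and, at 20 bases before the start, 1 ETS motif. The Ddx1 window (chr12:13249175-13249424, minus strand) held 1 ETS motif at 25 bases. In the Dhx57 window (chr17:80290477-80290726, minus strand) none of the motifs searched was found.
The ETS motif was in the windows of 12 of the 35 members (34.3%) and in 7.83% of the 27025 genes with a RefSeq promoter. GC boxes were in 23 members (65.7%), against 35.4% of all genes, and the CCAAT box in 16 (45.7%), against 37.5%. The interferon element was found in Ddx49 and Ddx60 alone (5.71%), against 3.46% of all genes. The E-box CACGTG was in 4 members (11.4%; all genes 6.86%), TTCCCGC of the E2F type in 4 (11.4%; all genes 4.38%) and TATAAA in 3 (8.57%; all genes 14.3%). The NRF1 motif and the YY1 motif AAGATGGC were in no member's window (all genes 0.877% and 1.83%). The letters of these motifs can overlap one another. Member windows had a median GC content of 57.2% and a median of 18 CpG dinucleotides, against 52.4% and 6 for all genes. The part of base composition in these motif shares was not tested, and a match describes letters, since no binding was measured.

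Signals below are the deposited array intensities, tests used log2(signal + 16), and a difference is on that log2 scale. Levels of different genes come from different probes and are not compared. The median signal of an array lay between 98.8 and 151, lowest on transitional 5 and next lowest on transitional 4. These 2 arrays also stood apart in cell type markers, of which 7 of 8 for B cells and 6 of 7 for T cells were lower than in mild spleens past the limma threshold, 7 of 8 for dividing cells and 1 of 6 tested for erythroid cells higher. The summed signal of 8 B cell markers was 6658 and 9763 on them and 23851 to 84334 on the other 9, and Pax5, which defines B lineage cells, read 4.2 and 12.2, against a mean of 75.5 over all arrays. For 7 T cell markers the sums were 151 and 1599 against 2788 to 24841. The summed signal of 7 erythroid markers was 53146 and 61287 against 1037 to 46099.6, with Hba-a1 at a mean of only 21.8. That of 8 markers of dividing cells was 39891 and 49648 against 6710.2 to 27941. All 8 granulocyte markers were higher than in mild spleens, 1 of them past the threshold. Their sums, 88217 and 154412, lay inside the range of the other arrays, 8838.5 to 197192. The labels name all samples B cell lymphomas, and on transitional 4 and 5 the defining B cell markers were near the bottom of their range.

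Across the 11 arrays the helicases had narrower ranges of signal at the median than tested genes as a whole, a description with no test and with no matching for brightness. The median range of a tested member, from its lowest to its highest array, was 1.11 on the log2 scale, against 1.56 for all 7740 tested genes. A range under 1 was seen in 13 of 37 members (35.1%) and in 19.2% of genes, and a range over 2 in 4 members (10.8%) and in 33.9% of genes. Ddx3x, an X-linked DEAD box helicase that promotes translation of structured messages, had the smallest range, 0.35. The widest belonged to Dhx57 (2.94), the antiviral helicases Ddx60 (2.58) and Dhx58 (2.57), the germ cell helicase Ddx25 (2.30) and the nucleolar helicase Ddx54 (2.17). Of the 37 tested members, 11 were highest on marginal 5, a moderate spleen (13.0% of genes), and 7 on marginal 6, the other moderate one (11.6% of genes). The lowest value fell on transitional 4 for 11 members (13.98% of genes) and on transitional 5 for 4 (23.4% of genes). For 15 of 37 members (40.5%) it was thus on 1 of these 2 moderately severe arrays, against 37.4% of all tested genes. The lowest value was on marginal 3 for 7 members (3.98% of genes) and on marginal 1 for 6 (9.59% of genes).

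**Figure D1:**
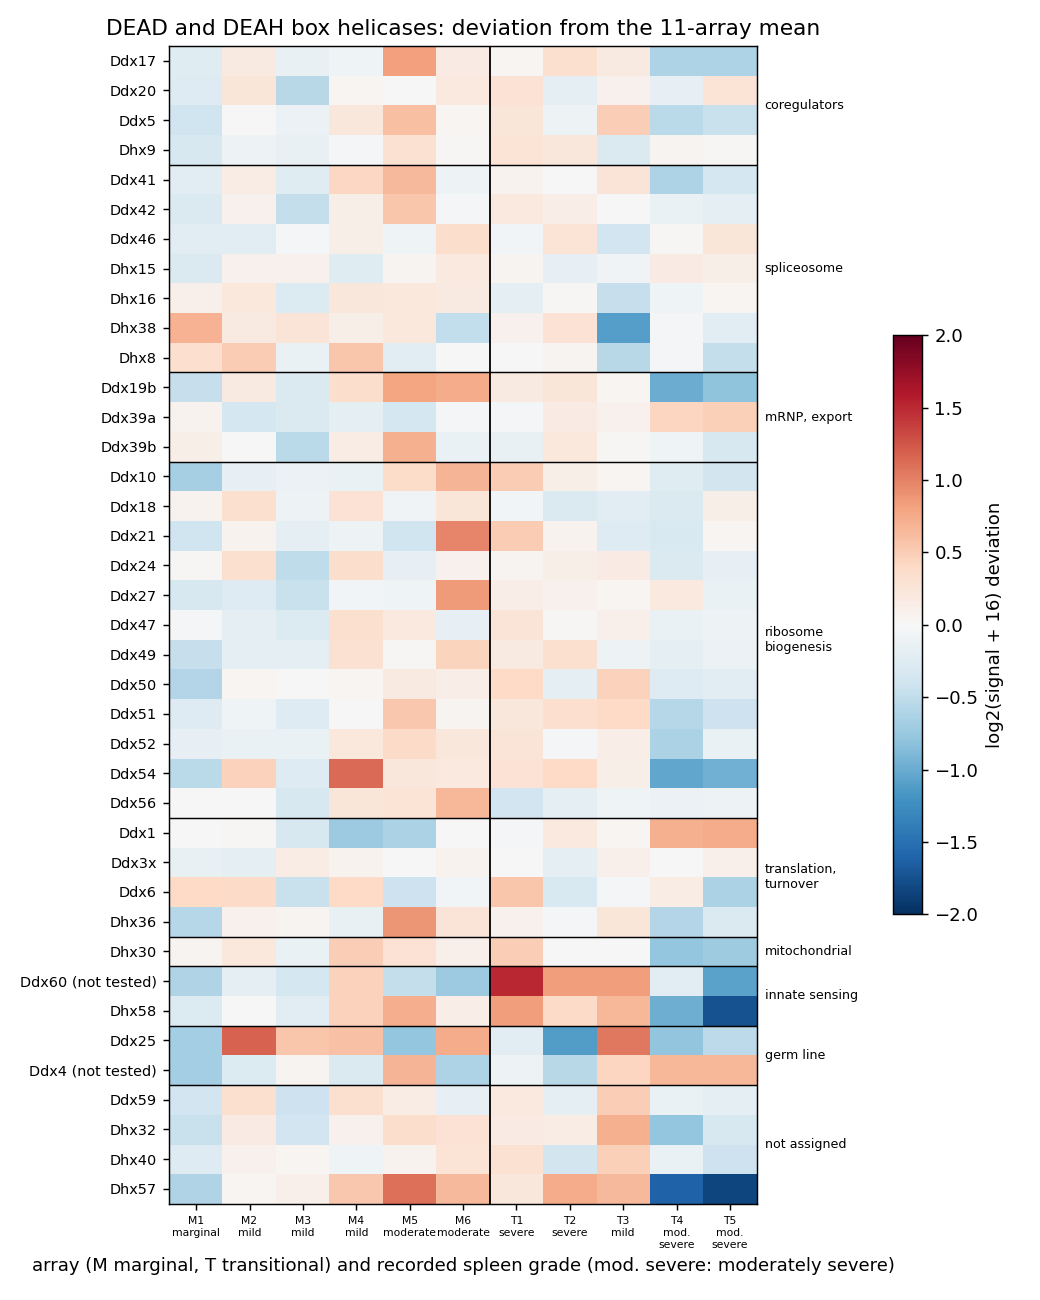
Deviation of each of the 39 helicases from its mean over the 11 arrays, in log2(signal + 16), with genes grouped by role in rows and arrays in columns (M marginal, T transitional, with spleen grade); red is above and blue below the gene's mean. Transitional 4 and 5 are blue for Dhx57, Dhx58, Ddx54, Ddx19b and Dhx30 and red for Ddx1 and Ddx39a, and most other rows are pale.

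The first question of the design was whether lymphomas of the 2 severity classes differ. No helicase differed between transitional and marginal lymphomas in the limma test with Benjamini-Hochberg adjustment over 13576 probe sets, and neither did any other gene (0 of 37 members; 0% of 7740 genes). The smallest adjusted p among members was 0.999. At an unadjusted p under 0.05 there were 2 of 37 members, Ddx1 and Ddx39a, against 254 of all tested genes (3.28%). Of the members 15 were higher and 22 lower in transitional lymphomas, with a median difference of −0.05, and over all tested genes 42.7% were higher and the median was −0.06. By its chosen probe set no member had classes without overlap, which 0.0904% of genes showed with transitional above and 0.181% with transitional below. Scaling each array to a common median moved the median of all genes to 0.06 and put 21 of 37 members higher, so the sign of small class differences rests on the scaling.

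**Figure D2:**
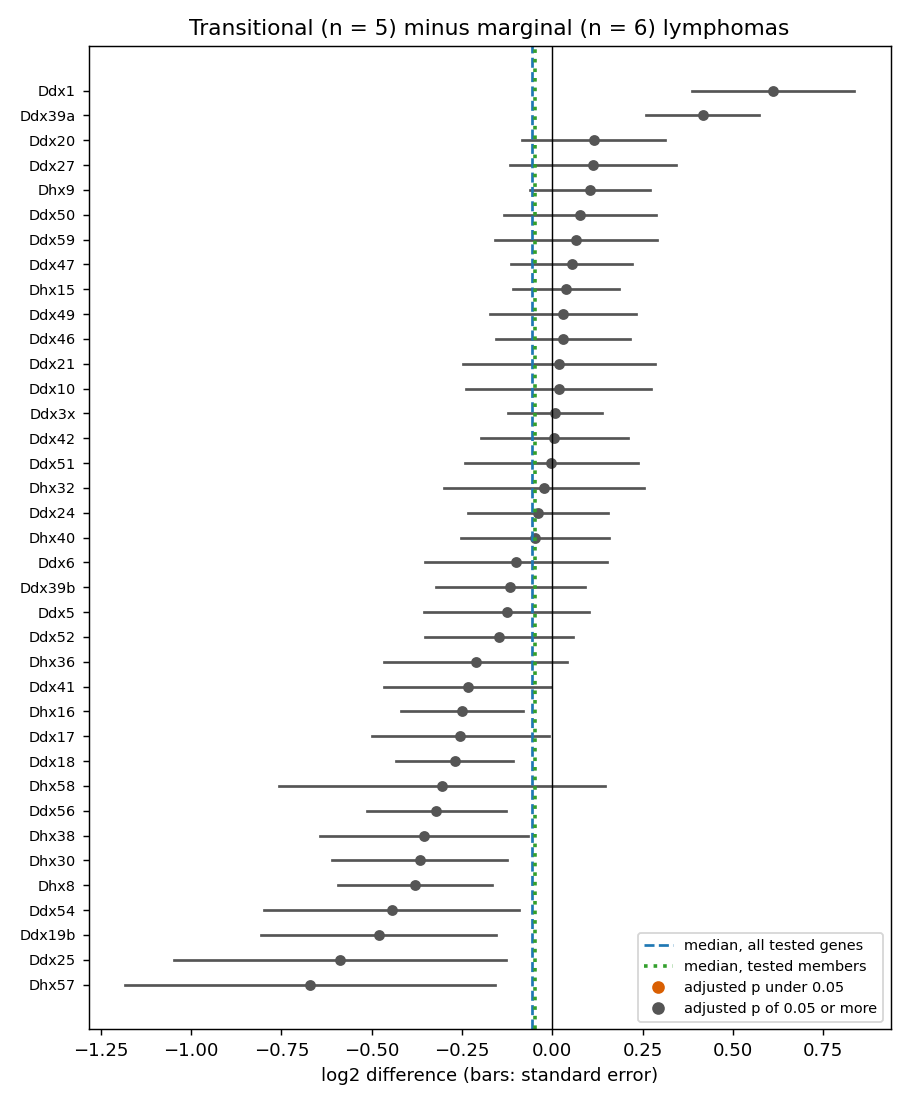
Difference of each tested helicase between transitional (n = 5) and marginal (n = 6) lymphomas, in log2(signal + 16), with bars of 1 standard error; lines mark the medians of all tested genes and of the members. Ddx1 and Ddx39a lie highest at 0.61 and 0.42, Dhx57 lowest at −0.67, and no point passed the adjusted threshold.

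The second question was whether helicase levels follow the recorded spleen grade. Counting the grades as ranks 1 to 5, limma called 0 of 37 members and 0% of genes, and at an unadjusted p under 0.05 it found 1 member, Dhx9, and 180 genes (2.33%). Dhx9, a DEAH box coregulator of transcription that also unwinds structured RNA, had a slope of 0.13 per grade step (SE 0.0552; limma adjusted p = 0.9996). With class in the model the counts were again 0 members and 0% of genes, with 1 member and 152 genes (1.96%) at an unadjusted p under 0.05. Grade and class overlap, since every marginal lymphoma had grade moderate or below and 4 of the 5 transitional ones had a grade above it.

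The grades were then compared one by one with the 4 mild spleens, and the 3 comparisons share these mild arrays. Between the 2 moderately severe and the 4 mild spleens 8 of 37 helicases differed (21.6%), 2 higher and 6 lower, while 1834 of 7740 genes differed (23.7%), 629 higher (8.13%) and 1205 lower (15.6%). At an unadjusted p under 0.05 there were 11 members and 40.2% of genes. The share of helicases called was thus near the share of all genes. Higher were Ddx1 and Ddx39a, and lower were Dhx57, Dhx58, Ddx54, Ddx25, Ddx19b and Dhx30. Of the 37 members 10 were higher and 27 lower, with a median of −0.30 against −0.19 for all genes. Severe minus mild gave 0 of 37 members and 0% of genes in limma (1 member, Ddx25, and 7.91% of genes at an unadjusted p under 0.05), with 23 members higher and a median of 0.10 against 0.01. Moderate minus mild gave 0 members against 0.0388% of genes (2 members, Ddx10 and Ddx19b, and 11.4% of genes at an unadjusted p under 0.05), with 28 members higher and a median of 0.17 against 0.0025.

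**Figure D3:**
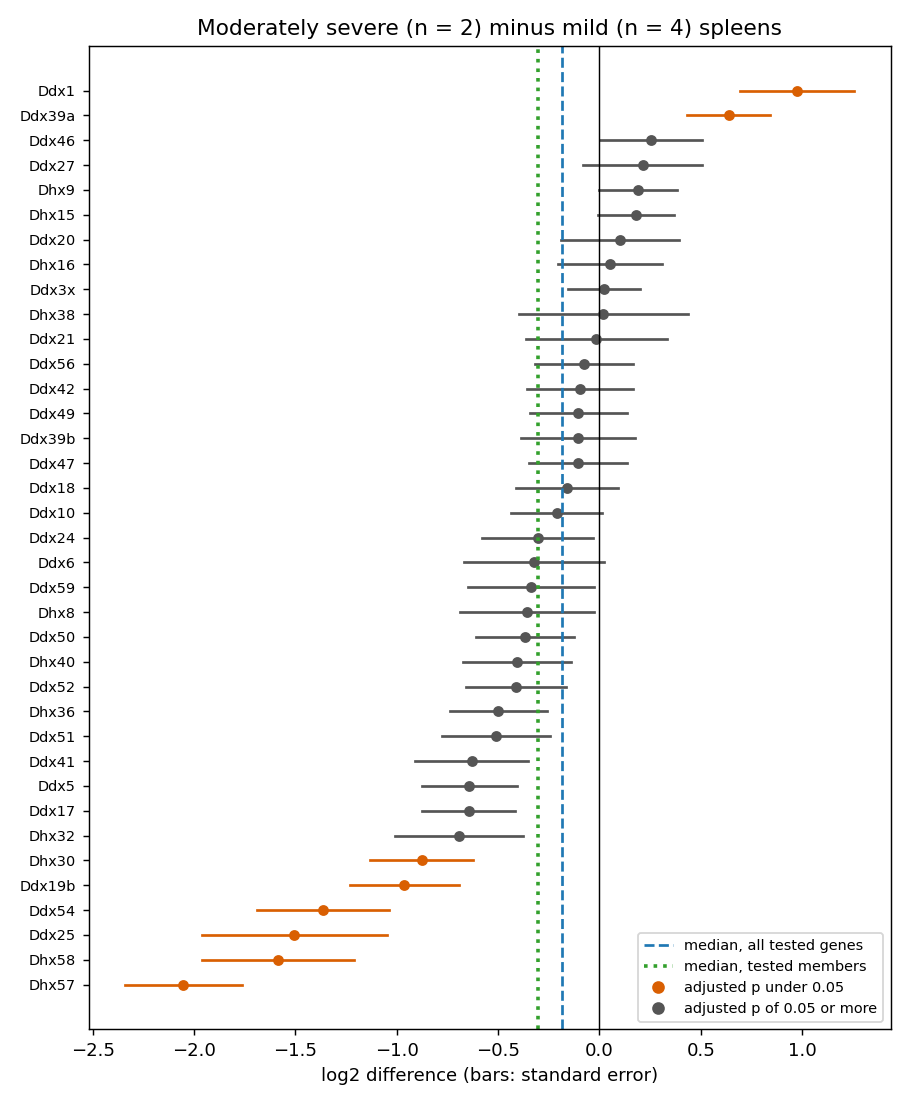
Difference of each tested helicase between moderately severe (n = 2) and mild (n = 4) spleens, in log2(signal + 16), with bars of 1 standard error, orange where the limma adjusted p was under 0.05. The 6 called low members run from −2.05 (Dhx57) to −0.88 (Dhx30), and the 2 called high ones are Ddx1 and Ddx39a.

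The moderately severe group is transitional 4 and 5, the arrays with few B and T cell and many erythroid and cell division transcripts. Granulocyte markers were also higher there than in mild spleens. The part of these cells in the helicase differences was not tested. In bulk RNA a lower share of one cell type and less RNA of a gene per cell cannot be told apart. With 2 arrays in the group the count rests on single arrays. It was 1 of 38 without transitional 5, where 21 of 7754 genes were called higher and 151 lower. Without transitional 4 it was 2 of 37, with 61 of 7743 genes higher and 546 lower. It was 3 without marginal 4 (277 of 7740 genes higher, 784 lower) and 4 without marginal 2 (447 of 7744 higher, 913 lower). With class in the model it was 2 (576 of 7740 genes higher, 723 lower). The calls over all genes thus changed with these settings too. Equalising the medians of the arrays moved the median of all genes in this comparison from −0.19 to 0.14 and that of the members to 0.029, and turned the split of called genes from 34.3% to 61.1% higher. Quantile normalisation gave a median of −0.04 for all genes and 41.3% higher. Each of the 8 called members kept its direction under every alternative in which it was tested.

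Among coregulators of transcription and RNA processing, none of 4 tested members passed the test in any comparison. Ddx5, a coactivator that also acts in the processing of microRNA precursors, read 7834 at the lowest, 10490.4 at the median and 15692 at the highest of the 6 marginal arrays and 12317, 9638, 14564, 7123 and 7610.1 on transitional 1 to 5. Its paralog Ddx17 read 3682, 4487 and 7752 in the same order in marginal lymphomas and 4462, 5462, 4926, 2844 and 2845 in transitional ones. For both genes the 2 moderately severe arrays lay below all 9 others, while the classes overlapped. Moderately severe minus mild was −0.64 (SE 0.23; limma adjusted p = 0.0721) for Ddx5 and −0.65 (SE 0.23; limma adjusted p = 0.0687) for Ddx17. Another probe set of each gene did pass, at −0.95 for Ddx5 (adjusted p = 0.0446) and −1.12 for Ddx17 (adjusted p = 0.0444), in the same limma fit. It was 1 of 6 tested probe sets for Ddx5, which ran from −0.95 to −0.03. For Ddx17 it was 1 of 3, which ran from −1.12 to −0.50. The paralogs share sequence, so probes may read both.
Dhx9 ranged from 1877 through a median of 2240.0 to 2933 in marginal lymphomas, and its transitional signals were 2846, 2749.9, 1923, 2459 and 2409. Its lowest arrays were marginal 1 and transitional 3, of the grades marginal and mild, and its highest was marginal 5. Ddx20, a member of the complex that loads small nuclear ribonucleoproteins, differed by 0.11 (SE 0.20) between classes.

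Of the 7 tested helicases that remodel the spliceosome 0 passed between moderately severe and mild spleens, where 23.7% of genes did (4 higher, 3 lower, median 0.02). Dhx15, which takes spent spliceosomes apart, read from 3673 to 5151 in marginal lymphomas, with a median of 4706, and 4662, 3988, 4261, 5053 and 4879 in transitional ones. These ranges lay inside one another, and the class difference was 0.04 (SE 0.15). Dhx8, which releases the finished message, had the smallest unadjusted p of this role between classes, with marginal signals of 417, 558 and 729.6 (lowest, median, highest) and transitional signals of 493, 509.8, 329, 476 and 349. All transitional values were at or below 509.8, and 3 marginal values lay under that too. The class difference of Dhx8 was −0.38 (SE 0.21; limma adjusted p = 0.999). Dhx16, which activates the assembled spliceosome, stood at −0.25 (SE 0.17), with marginal 3 at 570.0 well under the other marginal arrays at 749.8 to 817. Ddx46, needed when the branch point is recognised, differed by 0.03 (SE 0.19). Dhx38, which acts between the catalytic steps of splicing, read 206 on marginal 1 and 47.7 on transitional 3, its highest and lowest arrays, and differed by −0.35 (SE 0.29) between classes, and Ddx42 by 0.01 (SE 0.20). Ddx41 lay lowest on both moderately severe arrays (421 and 508) at −0.63 (SE 0.28; limma adjusted p = 0.126) from mild.

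Helicases of mRNA packaging and export went both ways. Ddx39a, a close paralog of the splicing and export factor Ddx39b, read 2704, 2911 and 3607 (lowest, median, highest) in marginal lymphomas, a mean of 3034 ± 377 (SD, n = 6), and 3378, 3846, 3667, 4654 and 4787 in transitional ones, a mean of 4066 ± 622 (SD, n = 5). Its 2 highest arrays were the moderately severe ones, and marginal 1, at 3607, was the one marginal array above the lowest transitional signal of 3378. The class difference was 0.42 (SE 0.16; limma unadjusted p = 0.0203, adjusted 0.999). From mild, where the arrays read 2704, 2799.9, 3021 and 3667, the moderately severe arrays differed by 0.64 (SE 0.20; limma adjusted p = 0.0488). This call was lost in 14 of 22 alternatives, with adjusted p up to 0.376, and of its 5 tested probe sets 4 were higher, 1 was lower and 1 passed. In 2 of the 5, which were not the one chosen for the gene, every transitional array lay above every marginal one. Their class differences of 0.51 and 0.44 did not pass (limma adjusted p = 0.999). With 1 chosen probe set per gene, 0.0904% of genes had transitional above without overlap. The share over all probe sets was not computed, so the 2 are given as a description.
Ddx39b itself was spread from 2715 to 6423 in marginal lymphomas (median 4116) and read 3542, 4557, 3982, 3716 and 3162 in transitional ones. Probes may not separate these close paralogs. Ddx39b differed by −0.12 (SE 0.21) between classes and by −0.11 (SE 0.28) between moderately severe and mild. Ddx19b, which strips proteins from messages at the nuclear pore, read 165, 115, 188 and 149.6 on mild and 65 and 76.4 on moderately severe spleens, with 263 and 254 on moderate, 167 and 175 on severe and 101 on the marginal grade. The 2 moderately severe arrays were the lowest and the 2 moderate ones the highest. Moderately severe minus mild was −0.96 (SE 0.27; limma adjusted p = 0.0313), and with all of its probe sets averaged the difference was −0.07. The call was lost in 11 of 21 alternatives, with adjusted p up to 0.889. Between classes it was −0.48 (SE 0.33).

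Of the 12 tested helicases of ribosome biogenesis 11 were lower in moderately severe than in mild spleens, with a median difference of −0.18 against −0.19 for all genes, of which 4581 of 7740 were lower. The differences of Ddx10, Ddx18, Ddx21, Ddx49 and Ddx56 turned positive in at least 1 alternative, up to 0.32 for Ddx21. Of the 12, 1 passed, where 23.7% of genes did. That one was Ddx54, a nucleolar helicase that also binds nuclear receptors. Ddx54 read 3252, 1957, 5143 and 2540.4 on mild spleens, 1129.5 and 1200.2 on moderately severe, 2734 and 2676 on moderate, 2866 and 3082 on severe and 1616 on the marginal grade. Both moderately severe arrays lay below every other array, and marginal 4 stood above the rest. The difference was −1.36 (SE 0.33; limma adjusted p = 0.0184), and the second tested probe set of Ddx54 also passed, at −1.22. The Ddx54 call was lost without transitional 4 (adjusted p = 0.104), without transitional 5 (adjusted p = 0.111) and with class in the limma model (adjusted p = 0.132). Between the classes Ddx54 differed by −0.44 (SE 0.35), and without both moderately severe arrays by 0.06.
Ddx21, a nucleolar helicase of ribosomal RNA transcription and processing, read 638 to 1683 in marginal lymphomas (median 767) and 1221, 889.8, 709, 683 and 877 in transitional ones. Marginal 6 and transitional 1 were high, the others lay between 638 and 898, and the class difference was 0.02 (SE 0.26). Ddx10, a factor of small-subunit assembly, was highest on marginal 6 at 803 and lowest on marginal 1 at 309, with a class difference of 0.02 (SE 0.25). Ddx18, a nucleolar helicase of growing cells, had marginal signals of 815 to 1099.5 (median 982) and transitional signals of 844, 718, 757, 718 and 952, a difference of −0.27 (SE 0.16). Ddx56, which acts in large-subunit assembly, was at −0.32 (SE 0.19) between classes, with 561 on marginal 6 its highest value and 263 on transitional 1 its lowest. Ddx49 differed by 0.03 (SE 0.20), and the class differences of Ddx24, Ddx27, Ddx47, Ddx50, Ddx51 and Ddx52, all nucleolar or rRNA-processing factors, ran from −0.15 (Ddx52) to 0.11 (Ddx27). None of the 12 passed between classes. The second tested probe set of Ddx52 had the other sign, at 0.38.

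In the group of cytoplasmic translation and mRNA turnover, Ddx1 was the member that passed. Ddx1, a partner of the ligase that joins tRNA pieces after splicing, read 594, 882 and 1006 (lowest, median, highest) in marginal lymphomas, a mean of 832 ± 188 (SD, n = 6), and 973, 1134, 1018, 1634 and 1666 in transitional ones, a mean of 1285 ± 338 (SD, n = 5). The 2 moderately severe arrays were the highest of all, and the other 3 transitional arrays lay near the top of the marginal range or just above it, so the classes overlapped. The class difference was 0.61 (SE 0.22; limma unadjusted p = 0.0183, adjusted 0.999), and without transitional 4 and 5 it was 0.35 (SE 0.23). Moderately severe minus mild, where the mild arrays read 1006, 785, 594 and 1018, was 0.97 (SE 0.28; limma adjusted p = 0.0344), and 6 of 22 alternatives took the adjusted p above the threshold, up to 0.252.
Ddx3x read 5028 to 6314 in marginal lymphomas, a mean of 5671 ± 509.5 (SD, n = 6), and 5659.6, 4955, 6071, 5724 and 6093 in transitional ones, a mean of 5701 ± 461 (SD, n = 5). All arrays lay between 4955 and 6314, and the class difference was 0.01 (SE 0.13). Dhx36, which resolves G-quadruplexes, was highest on marginal 5 at 2305, with all other arrays between 825 and 1492. It differed by −0.21 (SE 0.25) between classes and by −0.50 (SE 0.24; limma adjusted p = 0.155) between moderately severe and mild. Ddx6, a helicase of decapping and P bodies, differed by −0.10 (SE 0.25) between classes.

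Dhx30, which acts in assembly of the mitochondrial ribosome, read 941, 739, 1155 and 809 on mild spleens, 471 and 493 on moderately severe, 994 and 876 on moderate, 1156 and 808 on severe and 843 on the marginal grade. The moderately severe arrays were the 2 lowest, with a gap to the next array. Their difference from mild spleens was −0.88 (SE 0.25; limma adjusted p = 0.0341). Its other 2 tested probe sets gave −0.20 and 0.36, and 9 of 22 alternatives took the adjusted p above the threshold, up to 0.308.

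Of the 2 helicases of innate RNA sensing, Dhx58 was bright enough to test and was among the called members. Dhx58, a cytoplasmic receptor that binds viral double-stranded RNA and tunes the sensing of its relatives, read 119, 99.3, 168 and 198 on mild spleens, 52 and 24.3 on moderately severe, 206 and 131 on moderate, 223 and 159 on severe and 95.6 on the marginal grade. The moderately severe arrays were the 2 lowest, and transitional 1 and marginal 5 the 2 highest. The difference from mild was −1.59 (SE 0.37; limma adjusted p = 0.0172). It was lost without transitional 5 (adjusted p = 0.164), with its probe sets averaged (adjusted p = 0.0937) and with the animals that failed to nest alone (limma adjusted p = 0.0501). Between classes it was −0.30 (SE 0.45), and without the moderately severe arrays 0.49 (SE 0.28).
Ddx60, an interferon-induced helicase with 2 interferon elements in the window printed above, was too dim for the main test. Its marginal signals ran from 29.1 through a median of 40.4 to 87.7, and transitional 1 to 5 read 197, 118, 118, 48.1 and 19.5. Transitional 1, 2 and 3 lay above all marginal arrays, and transitional 4 and 5 lay inside or below the marginal range. With no filter, the limma class difference was 0.69 (SE 0.43; adjusted p = 0.999) and moderately severe minus mild was −0.84 (SE 0.46; adjusted p = 0.293). Without transitional 4 and 5 the class difference was 1.38, given as a description. Ddx60 did not pass the filter with all 11 arrays, and it passed here with its lowest array, transitional 5, among those left out. In that fit limma called 0 of 38 members and 0% of 7751 genes, with 8.27% of genes at an unadjusted p under 0.05.
Of 12 tested interferon-stimulated genes 5 were higher and 7 lower in moderately severe than in mild spleens, with 1 called higher and 4 called lower and a median of −0.69, while of all genes 23.7% were called, 15.6% lower, with a median of −0.19. Called lower were Rtp4 (−2.86), Ifit3 (−1.58), Oas1a (−1.37) and Stat2 (−1.30), a transcription factor of the interferon response. Called higher was Cmpk2 (0.81), a mitochondrial nucleotide kinase. In severe minus mild 10 of the 12 were higher and 2 lower, with a median of 0.41 against 0.0089 for all genes. None of the 12 was called there, and 3 had an unadjusted limma p under 0.05, as did 7.91% of genes. Between classes the smallest unadjusted p values of this list belonged to the RNA sensor Ifih1 (0.55, SE 0.19) and to Rsad2 (−1.87, SE 0.73), an antiviral enzyme, and neither passed.

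**Figure D4:**
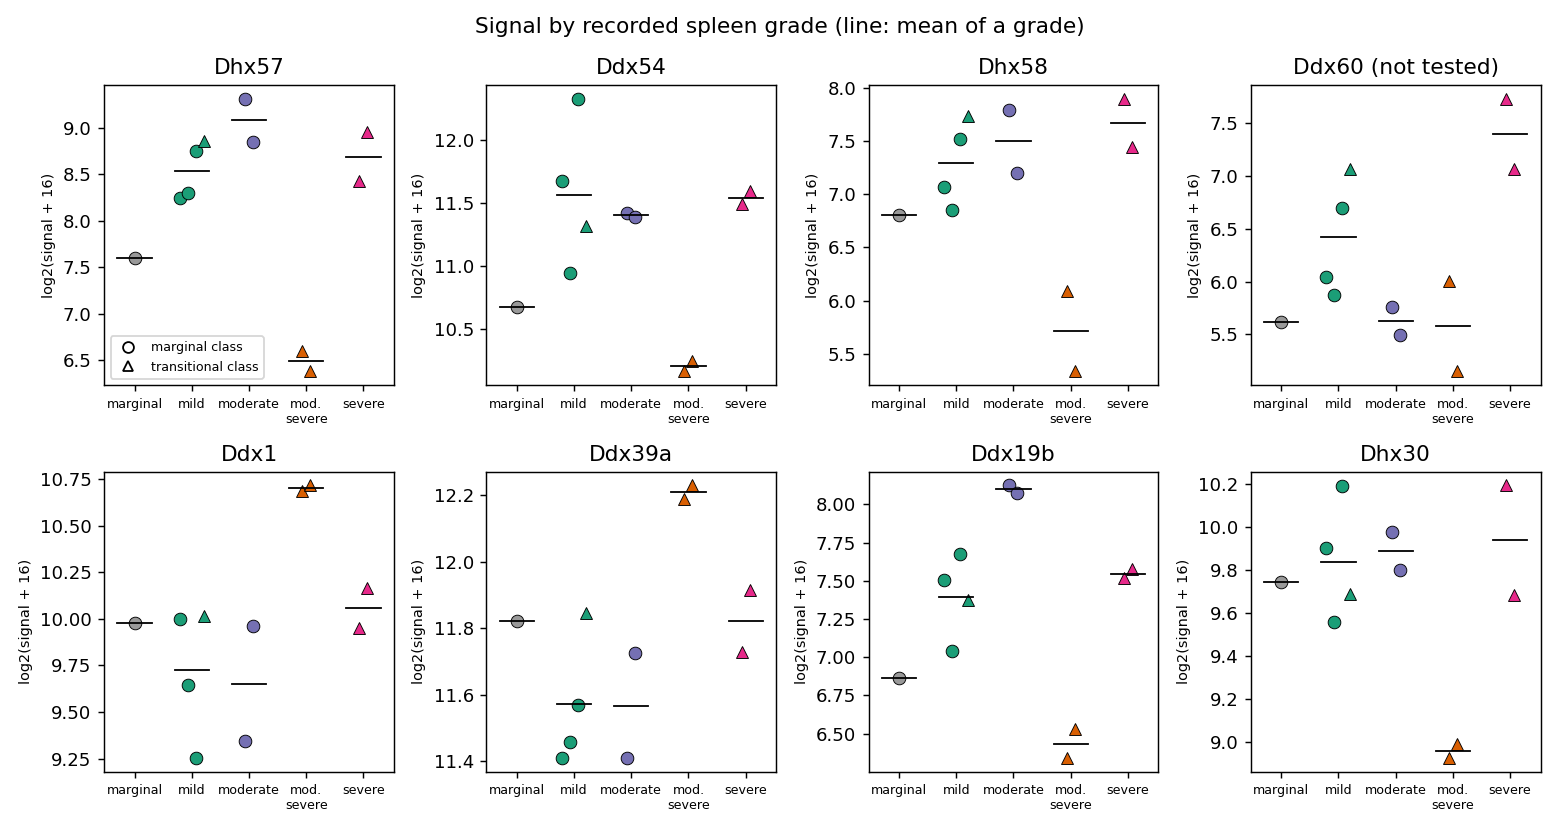
Log2(signal + 16) of 8 helicases by recorded spleen grade, 1 point per array (circles marginal class, triangles transitional class), with a line at the mean of each grade. The 2 moderately severe arrays lie below all others for Dhx57, Ddx54, Dhx58, Ddx19b and Dhx30 and above all others for Ddx1 and Ddx39a, while for Ddx60 transitional 1, 2 and 3 are the highest.

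The germ line helicases were dim. Ddx25, a helicase of late male germ cells, read 232, 144, 147 and 211 on mild spleens, 46.8 and 59.7 on moderately severe, 47.4 and 166 on moderate, 77.1 and 34.2 on severe and 52.2 on the marginal grade. High signals were on the 4 mild arrays and on marginal 6, and the low ones were spread over the other grades, with transitional 2 the lowest. Moderately severe minus mild was −1.50 (SE 0.46; limma adjusted p = 0.0411), and severe minus mild was −1.52 (SE 0.46; limma adjusted p = 0.459), which did not pass although its size was similar. The first call was lost in 9 of 21 alternatives, with adjusted p up to 0.195. Ddx4, the vasa homolog that marks germ cells, read at most 28.3 on any array and was not tested.

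Among the 4 members with no assigned role Dhx57 had the largest change. Dhx57 read 289, 299.6, 414 and 447 on mild spleens, 80.7 and 67.2 on moderately severe, 622 and 447 on moderate, 328 and 479 on severe and 178 on the marginal grade. The moderately severe arrays lay far below all others, with marginal 1 next and marginal 5 at the top. Dhx57 fell in moderately severe against mild spleens, with a difference of −2.05 (SE 0.29; limma adjusted p = 0.00325), and it stayed past the threshold in all 22 alternatives, with adjusted p up to 0.0449. Between classes it was −0.67 (SE 0.51), and 0.23 without the moderately severe arrays. Its probe set name marks it as shared by several transcripts, and it is the only one for the gene. The chosen probe sets of Ddx3x, Dhx9 and Dhx38 carry the same mark. Those of Ddx54 and Ddx17 carry a mark for probes that may read other sequences. Dhx32, Dhx40 and Ddx59 differed by −0.69, −0.41 and −0.34 and did not pass.

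Both moderately severe arrays lay below all 9 others for 9 of 37 members (Ddx5, Ddx17, Ddx19b, Ddx41, Ddx51, Ddx54, Dhx30, Dhx57 and Dhx58), where 21.9% of genes did so. They lay above all others for 2, Ddx1 and Ddx39a, where 13.2% of genes did so. Of 17 genes with 2 or more tested probe sets, 12 had 1 sign in all of them for moderately severe minus mild and 11 for the class difference.

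Within the 6 marginal lymphomas, where the grades run from marginal through mild to moderate, 30 of 37 helicases had a higher signal at higher grade, with a median of 0.24 per step against 0.0078 for all tested genes. None of the 37 passed in limma, while 218 of 7727 genes did (2.82%), and 4 members and 20.8% of genes had an unadjusted p under 0.05. The steepest were Dhx57 at 0.73 per step (SE 0.20; limma adjusted p = 0.0876), Ddx19b at 0.63, Ddx10 at 0.60 and Dhx36 at 0.57. Without marginal 1, the sole array of the lowest grade, 29 of 37 had a positive slope and the median was 0.17 against 0.0046, with 0 members and 0.493% of genes called. Markers of other cells moved with these grades. On marginal 1 to 6 the mean log2 deviation of granulocyte markers was 3.14, 0.67, 2.43, −1.35, −1.50 and −2.35, and that of erythroid markers 1.17, 0.88, 1.33, −0.28, −0.07 and −0.03. Their part in the helicase slopes was not tested.

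The partners of the helicases were read from lists of the same processes. Of 34 tested ribosome biogenesis partners 18 were higher and 16 lower in moderately severe than in mild spleens, with a median of 0.01, and 1 passed, Bysl at 0.82 (SE 0.23; limma adjusted p = 0.03), a factor of small-subunit maturation. Their helicases, with 11 of 12 lower, had a median of −0.18, near the −0.19 of all tested genes. Some of these helicases turned sign in the alternatives, as given above. Of all 7740 tested genes 40.8% were higher in this comparison, and 23.7% were called, 8.13% higher and 15.6% lower. Of 23 spliceosome core partners 12 were higher and 11 lower, with a median of 0.09, and Eftud2, a GTPase of the tri-snRNP, passed at 0.92. In the mRNA export list 9 of 12 were higher, with a median of 0.16, and Thoc7 of the THO complex passed at 1.05. Of 10 tested cap-binding and decay partners 3 were higher and 7 lower, with the cap-binding protein Eif4e called higher at 0.82 and the scaffold Eif4g3 called lower at −1.03. Of 8 tested related helicases outside the Ddx and Dhx names 4 were higher and 4 lower, and none passed in limma (4 had an unadjusted p under 0.05).
Between classes none of these lists had a member past the threshold. The medians were 0.04 for ribosome biogenesis, 0.04 for the spliceosome core, 0.16 for mRNA export, −0.06 for cap binding and decay, −0.07 for interferon-stimulated genes and 0.07 for related helicases, against −0.06 for all genes. By the smallest unadjusted p the splicing factors Prpf8 (−0.40, SE 0.18) and Sf3b2 (−0.36, SE 0.17) were lower, and the export factors Sarnp (0.46, SE 0.24) and Thoc6 (0.34, SE 0.18) were higher. Nhp2 (0.30) and Bysl (0.31) of ribosome biogenesis were higher and Edc4 (−0.35) and Eif4g3 (−0.32) of decay and translation lower, all without passing.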

How the data were processed

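Total RNA of 6 marginal and 5 transitional lymphomas was labelled with biotin through poly-dT primed cDNA and hybridised, per the labels' protocols. The deposited values are linear intensities computed by the authors with MAS5, per the submitters' processing notes; its version and any batch record are not given in the sources used here. A 2% trimmed mean of 500.2 held on every array, so a shift of most transcripts in 1 direction would not show. Of 22690 probe sets 64 controls were left out; 20380 of the rest had 1 gene symbol in the platform annotation, 691 several and 1555 none. After adding 16 and taking log2, the upper 60% by mean (13576 probe sets, 7740 genes) were tested with limma 3.58.1 in R 4.3.3 (eBayes with trend, two-sided) with Benjamini-Hochberg adjustment over all of them, threshold 0.05. Models were class, grade rank, grade rank with class, and 1 mean per grade. Members, lists and motifs were chosen with earlier results of these data known. Named are members called in a comparison, the 8 with the smallest p between classes and in the grade trend, the 3 highest and the 5 widest in range, the highest and the 2 with the smallest p between classes of each role, the 5 with the smallest p between moderately severe and mild, and 2 of each partner list by p between classes; others named were chosen after their values were seen. Offset, scaling, dim filter, trend, array weights, probe set rule, left-out arrays and a replicate block were varied. The number of arrays limits the precision.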

Additional observations from a re-analysis of the deposited data

Results flagged for a closer look

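In 48 groups of named members (24 members, 2 classes), the gap from the highest or lowest array to its neighbour, over the range of the group, passed Dixon's 95% value in 2 groups, and chance flags about 1 in 20 groups. Dhx16, the helicase that activates the spliceosome, read a log2 signal of 9.19 on marginal 3, with the next marginal array at 9.58, so the gap was 0.76 of the range. Ddx21, the nucleolar helicase, read a log2 signal of 10.73 on marginal 6, with the next at 9.84, a gap of 0.65 of the range.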

How the results depend on the processing

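The counts of helicases called between classes and in the grade trend were 0 under each alternative run. The count between moderately severe and mild spleens, 8 as reported, was 4 with quantile normalisation and 5 each with common medians, no filter on dim probe sets, the upper 40% of probe sets, or the average of a gene's probe sets. It was 7 with an offset of 64 or with eBayes without trend, 8 with an offset of 1 and 10 with array weights. Left-out arrays gave 1 to 9. The animals that failed to nest alone gave 3 and class in the model gave 2. Both were chosen after seeing the data, as was the grade trend without marginal 1. Over all genes, calls higher and lower were 607 and 864 of 7741 with quantile normalisation and 1186 and 754 of 7737 with common medians. They were 451 and 972 of 12393 with no filter and 546 and 998 of 5540 in the upper 40%. Averaged probe sets gave 622 and 1176 of 7636, and array weights 947 and 1671 of 7740. The animals that failed to nest gave 236 and 759 of 7760. The median of the members, −0.30, was 0.029 with common medians and −0.16 in the upper 40%. In the upper 40% only 31 members were tested, and the dim called members Dhx58, Ddx25 and Ddx19b were no longer among them. No member still tested there lost its call. Any other cause of these moves was not tested. Of 503 values of named members in this comparison under the alternatives, 441 stayed on the same side of the threshold, 55 lost the call, 7 gained it and 0 calls reversed; of 526 values between classes, 526 stayed on the same side. The sign of members that were not called, such as Ddx3x and Ddx21, turned in some alternatives. Without transitional 4 and 5 the moderately severe group is empty and was not run.

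With the replicate number as a block the class comparison called 0 members and the members' median was −0.03. Same-numbered arrays deviated with correlations of −0.45 to −0.09. Differently numbered arrays were not compared with these, so whether the numbers pair the arrays was not tested. The block changed no call. The number of arrays limits the precision.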

Other observations

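Ddx1 and Ddx39a, the 2 helicases highest on the moderately severe arrays, were on the same side in the other transitional lymphomas. Without transitional 4 and 5 the class difference of Ddx1 was 0.35 and that of Ddx39a 0.26, neither past the limma threshold (adjusted p = 0.795 and 0.785). With these arrays left out the median class difference of the 38 helicases that then passed the filter was 0.11, against 0.02 for all genes. Ddx60 is among the 38 but did not pass the filter with all 11 arrays, and its lowest array, transitional 5, is among those left out. A count of 38 tested members was also reached without marginal 1, with transitional 4 and 5 kept. These arrays also had the lowest mean helicase deviation, so leaving them out raises the transitional side by construction.

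Averaged over the 39 members, the log2 deviation from the 11-array mean was −0.28 on transitional 4, −0.28 on transitional 5, −0.23 on marginal 1 and −0.18 on marginal 3, and between 0.05 and 0.20 on the other 7. On transitional 4 and 5 and marginal 1 and 3, in that order, the mean log2 deviation of erythroid markers was 1.87, 1.63, 1.17 and 1.33, that of granulocyte markers 2.58, 1.65, 3.14 and 2.43, and that of dividing cells 1.57, 1.29, 0.73 and 0.66. Marginal 2 had 0.88 for erythroid markers with a helicase mean of 0.08. The part of these cells in the helicase signals was not tested.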
